A study of Mus musculus with 6 samples.

Results

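GLUTag cells are a murine enteroendocrine line that secretes glucagon-like peptide hormones, and the genes described here encode the enzymes, and the partner proteins of those enzymes, that turn a peptide precursor into its hormones. The set holds 10 of the 54281 genes in the count table: 5 proprotein convertases (Pcsk1, Pcsk2, Furin, Pcsk5 and Pcsk7), 2 convertase-binding proteins (Pcsk1n and Scg5), 2 carboxypeptidases (Cpe and Cpd) and 1 amidating enzyme (Pam). They were chosen by role, with no measured value in the rule, and each was matched by its Ensembl identifier.

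The cells grew for 48 h on Matrigel in DMEM with 1 g/L glucose and 10% FBS, and per the labels no library received a drug, an siRNA or another treatment. Plate 1 (passage 23) and plate 2 (passage 27) each gave 3 libraries, and nothing in the labels places the wells of a plate in separate cultures. An effect of plate cannot be told apart from one of passage. Column names of plate 2 restart the replicate number, which fits no single sample title. The plate 2 libraries are called here the shallowest, the mid-depth and the deepest, by their total count.

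Peptide hormones are made as larger precursors that lose their signal peptide on entry to the secretory pathway. Convertases then cut at basic residues, carboxypeptidases trim those residues from the new C-termini, and some peptides are amidated at the end. The pair Pcsk1 (prohormone convertase 1/3) and Pcsk2 (prohormone convertase 2) acts in secretory granules, and which of them is active sets the products of proglucagon: intestinal L-cells, with Pcsk1, yield GLP-1 and GLP-2, whereas pancreatic α-cells, with Pcsk2, yield glucagon.

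The library kit reads the 3′ end of polyadenylated RNA, so a count stands for a transcript whatever its length, and genes were compared as counts per M of the library's total (CPM) with no length term. Library totals ranged from 21399987 to 36488198. Where a gene has no count, up to 3 counts remain possible, which is 0.0822 to 0.14 CPM by library, counting error alone considered. All 9 enteroendocrine marker genes had more than 3 counts in every library and summed to between 5839 and 6711 CPM on plate 1 and between 6692 and 7834 CPM on plate 2. Among these markers Gcg and Cck averaged 3416 and 1080 CPM. The hormone genes Pyy (0.263 CPM), Gip (0) and Sst (at most 1 count) were not among the markers. Of other cell types, 2 of 6 markers of other intestinal epithelium, 1 of 5 of fibroblasts and 1 of 4 of leukocytes had more than 3 counts in every library. Their sums lay between 1.54 and 3.40 CPM on plate 1 and 2.39 and 4.41 CPM on plate 2 for epithelium, and between 4.71 and 6.99 CPM and 5.41 and 7.06 CPM for fibroblasts. The leukocyte sum, from 0.333 to 0.794 CPM on plate 1 and from 1.26 to 1.60 CPM on plate 2, did not overlap and moved with the plate, as did Cd68 within it, and its part in the results was not tested. Apob, Fabp2 and Col3a1 were at 0. The mid-depth plate 2 library stood apart from the rest, as the comparison of plates shows, so the main differences between plates are also given in its absence. That library was picked by the same comparison, so the p-values without it follow this choice and are a description. Single enteroendocrine markers moved both ways in it, by amounts given below.

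All 10 genes had at least 1 count in every library, and 9 of them, all but Pcsk5, exceeded 3 counts in each. Together they summed to 1122 ± 188 CPM (SD, n = 6), between 903 and 1427 CPM. In the order of the mean, Cpe led, followed by Scg5, Furin, Pcsk1, Cpd, Pcsk1n, Pam, Pcsk2, Pcsk7 and Pcsk5. Cpe ranked 387 among all genes, Scg5 719 and Furin 915, while Pcsk1 ranked 2110, Pcsk2 3217 and Pcsk7 9113. The median coefficient of variation over the 6 libraries was 26.2% for the 9 genes above 3 counts and 18.0% for the 8658 genes that average 10 CPM or more.

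**Figure D1:**
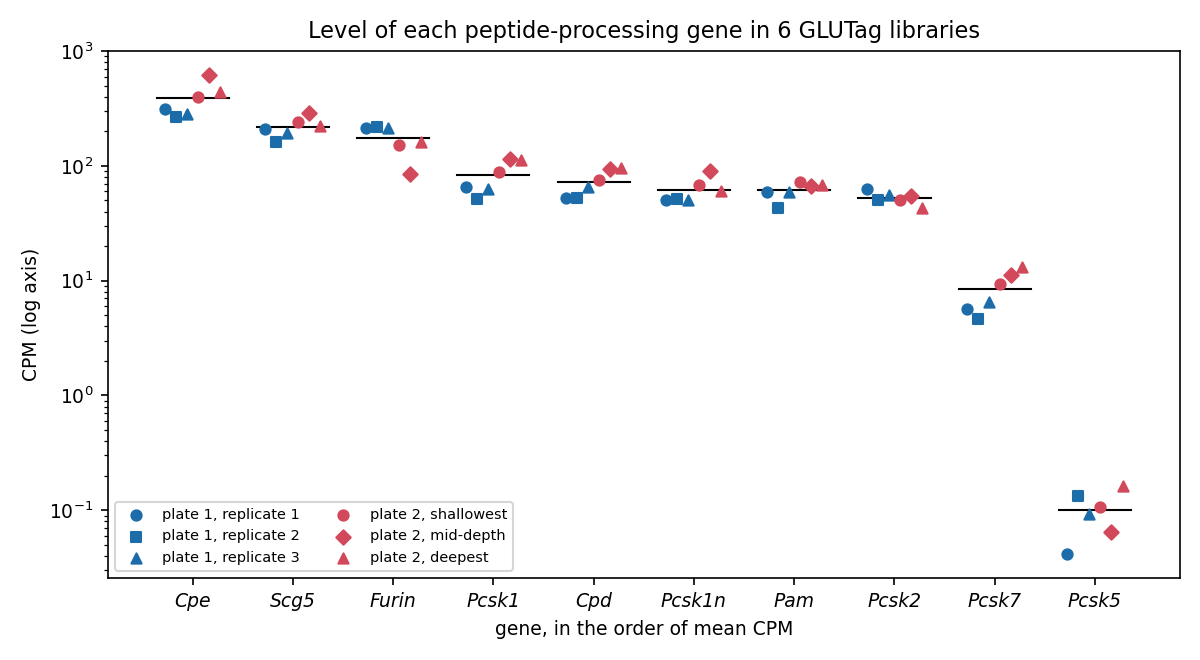
CPM (vertical log axis) of each of the 10 genes, in the order of the mean, in 3 plate 1 libraries (blue) and 3 plate 2 libraries (red), with a line at the mean of the 6. Cpe leads at 388 CPM, 7 genes lie between 52.9 and 219 CPM, and Pcsk7 at 8.43 and Pcsk5 at 0.1002 CPM lie far below them.

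To compare 2 genes, the log2 ratio of their CPM + 1 was taken in each library and tested over the 6 libraries by exact sign-flip permutation (two-sided), with Benjamini-Hochberg adjustment over 17 pairs, 9 of them neighbours in the order. With 6 libraries the smallest p is 0.03125, which adjusts here to 0.0443. That smallest p arises whenever all 6 libraries agree in direction, whatever their spread. Wells of a plate are treated as independent though they may share a culture, and differences between them may be technical. The order was taken from the same 6 libraries, so the tests of neighbours describe these libraries and lend that order no support. Of the 17 pairs, 12 passed with the same direction in 6 of 6 libraries, among them the neighbours Cpe above Scg5, Cpd above Pcsk1n, Pcsk2 above Pcsk7 and Pcsk7 above Pcsk5. The other 5, all neighbours, did not pass: Scg5 and Furin, Furin and Pcsk1, Pcsk1 and Cpd, Pcsk1n and Pam, and Pam and Pcsk2.

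Pcsk1 (ENSMUSG00000021587, GRCm38 chromosome 13, 75089826 to 75134861, plus strand), the convertase that releases GLP-1, had 65.6, 51.65 and 62.8 CPM in replicates 1, 2 and 3 of plate 1. On plate 2 it had 89.0, 115.5 and 113.0 CPM in the shallowest, mid-depth and deepest library. The mean was 82.9 ± 27.2 CPM (SD, n = 6), from 1169 to 4122 counts. Every plate 2 library lay above every plate 1 library.

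Pcsk2 (ENSMUSG00000027419, chromosome 2, 143546156 to 143816285, plus strand), the convertase of glucagon production in α-cells, had 62.6, 50.6 and 56.3 CPM on plate 1 and 50.9, 54.15 and 42.6 CPM on plate 2. Its mean was 52.9 ± 6.66 CPM (SD, n = 6), from 1146 to 1674 counts, and the plates overlapped. With a coefficient of variation of 12.6% in CPM over the total, it had the smallest spread of the 10 genes. Over the TMM-scaled total, every plate 2 library lay below every plate 1 library for Pcsk2. The annotation places Pcsk2os1, at 12.1 CPM, on the opposite strand within its span, and the strand setting of the counting is not given in the sources used here.

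Pcsk1 was higher than Pcsk2 in 6 of 6 libraries, with a mean log2 difference of 0.58 ± 0.58 (SD, n = 6; exact sign-flip p = 0.03125, adjusted p = 0.0443). The excess was small on plate 1, where the ratio of Pcsk1 to Pcsk2 was 1.05, 1.02 and 1.12. On plate 2 it was 1.75, 2.13 and 2.65. The mean log2 difference was 0.08 on plate 1 and 1.09 on plate 2, and the groups did not overlap. The exact two-sided permutation test of the plates gave p = 0.1, the smallest that 3 against 3 libraries allow (adjusted p = 0.17 over the 17 pairs). Most of the 17 pairs reached that same p, so separation of the plates was not particular to this ratio. Without the mid-depth library the plates differed by 1.01 on the log2 scale, against 1.00 with it.

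Furin (ENSMUSG00000030530, chromosome 7, 80388585 to 80405436, minus strand), the convertase of the trans-Golgi network that most cells use for constitutively secreted and surface proteins, had 215.5, 220.3 and 211.9 CPM on plate 1. On plate 2 it had 152.8, 84.65 and 161.0 CPM, with the lowest value in the mid-depth library. The mean was 174 ± 52.7 CPM (SD, n = 6), and all plate 2 libraries lay below all plate 1 libraries. Furin exceeded Pcsk2 in 6 of 6 libraries, with a log2 difference of 1.64 ± 0.52 (SD; exact sign-flip p = 0.03125, adjusted p = 0.0443). Against Pcsk1 it was higher in 5 of 6 libraries by a mean of 1.06 ± 0.95 (exact sign-flip p = 0.0625, adjusted p = 0.0817), which did not pass. The mid-depth library was the exception, with 1.365 times as much Pcsk1 as Furin, and the ratio in the others was between 0.235 and 0.702. Without that library the mean log2 ratio of Pcsk1 to Furin was -1.36.

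Pcsk7 (ENSMUSG00000035382, chromosome 9, 45906497 to 45929726, plus strand), a membrane-bound convertase of the general secretory pathway, had 5.71, 4.60 and 6.54 CPM on plate 1 and 9.44, 11.2 and 13.15 CPM on plate 2. The mean was 8.43 ± 3.36 CPM (SD, n = 6), from 104 to 480 counts, again with no overlap between plates. The annotation has Rnf214, at 22.3 CPM, and Tagln, at 0, on the opposite strand within its span. Furin exceeded Pcsk7 by 4.23 ± 0.97 on the log2 scale (SD) and Pcsk2 exceeded it by 2.58 ± 0.65 (SD), each in 6 of 6 libraries.

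Pcsk5 (ENSMUSG00000024713, chromosome 19, 17432319 to 17837632, minus strand), a furin-like convertase, had between 1 and 6 counts per library and 0.1002 ± 0.0438 CPM (SD, n = 6). In some libraries it lay at or under the 3 counts that remain possible for a gene with no count, so its ratios depend on the pseudocount. Furin exceeded it by 7.25 on the log2 scale with a pseudocount of 1 CPM, by 9.73 with 0.1 CPM and by 5.07 with 5 CPM. The direction held in 6 of 6 libraries.

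The summed level of the 5 convertases was 318.7 ± 30.3 CPM (SD, n = 6), between 265.5 and 349.5 CPM. The share of each convertase in this sum was not tested between plates, and its values are given as a description. Furin made up 61.7%, 67.3% and 62.8% of the sum on plate 1 and 50.5%, 31.9% and 48.8% on plate 2. Pcsk1 took 18.8%, 15.8% and 18.6% on plate 1 and 29.45%, 43.5% and 34.2% on plate 2. Neither set of shares overlapped between the plates. Pcsk2 kept a mean of 16.7% on both, with an SD of 1.22 on plate 1 and 3.74 on plate 2, and Pcsk7 had 1.66 ± 0.268% (SD, n = 3) on plate 1 and 3.77 ± 0.572% on plate 2. In the absence of the mid-depth library, the plate 2 means were 49.7% for Furin, 31.85% for Pcsk1, 14.9% for Pcsk2 and 3.56% for Pcsk7. These shares add to a whole, so a higher share of 1 gene comes with a lower share of others.

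**Figure D2:**
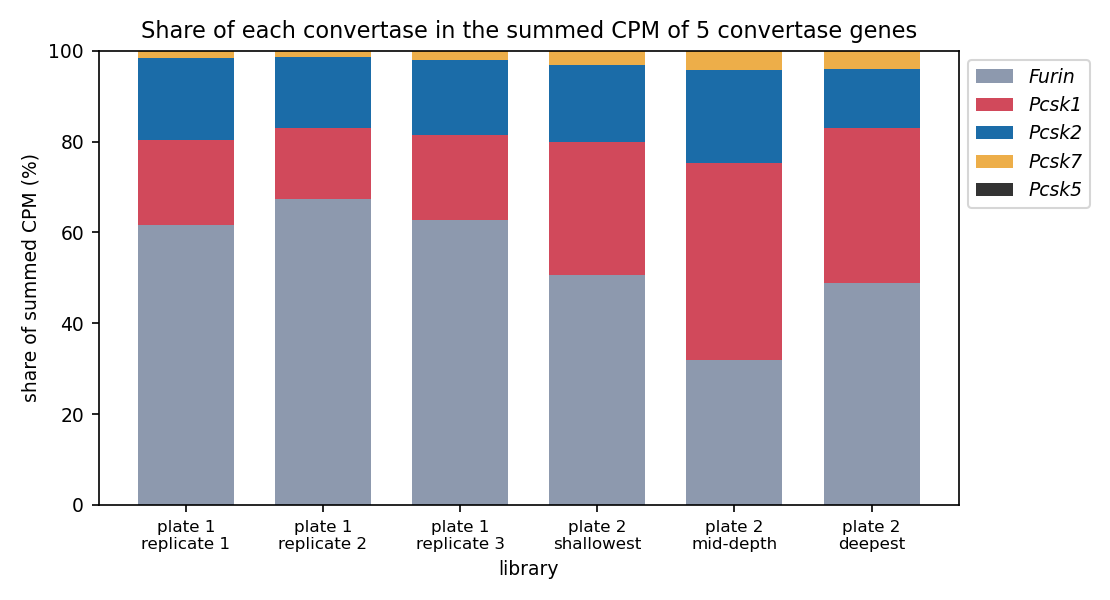
Share of each convertase (%, stacked to 100) in the summed CPM of the 5 convertase genes, 1 bar per library. Furin takes from 61.7% to 67.3% on plate 1 and from 31.9% to 50.5% on plate 2, where Pcsk1 takes from 29.45% to 43.5%, and Pcsk5 is too small to see.

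The sequences before the start sites of Pcsk1, Pcsk2 and Furin are shown since these are the 3 most abundant of the 5 convertases, and Pcsk1 and Furin lay on opposite sides between the plates. They are the 250 bases before the RefSeq start on GRCm38.p6, 5′ to 3′ on the gene's strand: Pcsk1 at chr13:75089607-75089856 (plus), Pcsk2 at chr2:143545883-143546132 (plus) and Furin at chr7:80405437-80405686 (minus, the first of 2 RefSeq starts). The GENCODE start of Pcsk1, at 75089826, lies inside the printed run. Capitals mark the letters TGACGTCA (the cAMP response element), TGACG (its core; CGTCA on the other strand) and TATAAA.
Pcsk1: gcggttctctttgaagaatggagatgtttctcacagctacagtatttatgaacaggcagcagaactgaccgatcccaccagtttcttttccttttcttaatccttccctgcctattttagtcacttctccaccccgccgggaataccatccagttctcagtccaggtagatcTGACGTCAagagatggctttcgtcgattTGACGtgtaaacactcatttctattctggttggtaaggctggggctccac
Pcsk2: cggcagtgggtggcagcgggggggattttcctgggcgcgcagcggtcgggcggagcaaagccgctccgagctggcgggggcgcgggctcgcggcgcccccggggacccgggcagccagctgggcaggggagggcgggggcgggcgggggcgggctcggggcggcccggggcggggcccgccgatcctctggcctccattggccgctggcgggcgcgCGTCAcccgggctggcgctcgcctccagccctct
Furin: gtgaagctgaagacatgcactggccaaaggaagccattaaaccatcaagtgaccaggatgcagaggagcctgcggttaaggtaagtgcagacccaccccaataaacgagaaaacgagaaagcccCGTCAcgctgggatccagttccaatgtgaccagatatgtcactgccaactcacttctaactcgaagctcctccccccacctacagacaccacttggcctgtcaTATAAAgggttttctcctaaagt

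RefSeq windows from 250 bases before to 50 after a start were at hand for 9 of the 10 genes, 11 windows in all, and both strands were searched. Cpe had no entry. The full TGACGTCA stood in the Pcsk1 window alone among the 11, with its last base 71 bases before the start, and in 1.79% of all 32851 windows. TGACG stood in 4 of the 11 windows, those of Pcsk1, Pcsk2, Scg5 and the first of Furin, and in 20.81% of all windows. In Pcsk1, 2 of its 3 matches lie in TGACGTCA, 1 on each strand, and the third ends 46 bases before the start. TATAAA stood only in the first Furin window, ending 18 bases before the start, and in 13.62% of all windows. The G + C content of the windows was 49.3% for Pcsk1, 76.3% for Pcsk2 and 51.3% for this Furin window, where the median of all was 52.7%. A match is a run of letters and shows no binding.

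Pcsk1n (ENSMUSG00000039278, chromosome X, 7919822 to 7924410, plus strand) encodes proSAAS, which inhibits Pcsk1. It had 50.2, 51.3 and 50.5 CPM on plate 1 and 68.8, 90.4 and 60.5 CPM on plate 2, a mean of 62.0 ± 15.8 CPM (SD, n = 6). The SD on plate 1 was 0.565 CPM, and all 3 plate 2 libraries lay above plate 1. Pcsk1 was higher than this inhibitor in 6 of 6 libraries, with a log2 difference of 0.38 ± 0.28 (SD; exact sign-flip p = 0.03125, adjusted p = 0.0443). Their ratio was 1.31, 1.01 and 1.24 on plate 1 and 1.29, 1.28 and 1.87 on plate 2, so 1 library, the deepest, stood above the rest.

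Scg5 (ENSMUSG00000023236, chromosome 2, 113776362 to 113829121, minus strand) encodes 7B2, the chaperone that Pcsk2 needs to mature. It had 209.7, 161.3 and 194.3 CPM on plate 1 and 241.2, 287.7 and 220.9 CPM on plate 2, a mean of 219 ± 43.0 CPM (SD, n = 6). Scg5 exceeded Pcsk2 in 6 of 6 libraries, and Pcsk2 was 0.2985, 0.314 and 0.290 times Scg5 on plate 1 and 0.211, 0.188 and 0.193 times on plate 2. The mean log2 ratio of Pcsk2 to Scg5 was -2.02 ± 0.34 (SD; exact sign-flip p = 0.03125, adjusted p = 0.0443). The plates did not overlap in this ratio either, with an exact permutation p of 0.1 (adjusted p = 0.17). Most of the 17 pairs had this p, among them Scg5 to Furin, Pam to Pcsk2 and Furin to Pcsk7. The exact permutation p of the rest lay between 0.2 and 0.6.

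Cpe (ENSMUSG00000037852, chromosome 8, 64592542 to 64693054, minus strand) encodes carboxypeptidase E, which removes the basic residues that convertases leave at the C-terminus in granules. It had 315.4, 267.6 and 281.9 CPM on plate 1 and 400.2, 623.3 and 442.1 CPM on plate 2, a mean of 388 ± 134 CPM (SD, n = 6). The mid-depth library had the highest value, and plate 2 lay above plate 1. Cpe was higher than Scg5, the next in order, in 6 of 6 libraries, with a log2 difference of 0.78 ± 0.23 (SD; exact sign-flip p = 0.03125, adjusted p = 0.0443).

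Cpd (ENSMUSG00000020841, chromosome 11, 76778424 to 76847018, minus strand) encodes carboxypeptidase D, which does the same trimming in the trans-Golgi network. It had 52.6, 52.4 and 66.0 CPM on plate 1 and 74.7, 93.1 and 95.5 CPM on plate 2, a mean of 72.4 ± 19.0 CPM (SD, n = 6). Cpe was from 4.27 to 6.69 times Cpd, 5.34 ± 0.891 on average (SD, n = 6), and the plates overlapped in this ratio. The mean log2 difference was 2.38 ± 0.24 (SD; exact sign-flip p = 0.03125, adjusted p = 0.0443).

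Pam (ENSMUSG00000026335, chromosome 1, 97795114 to 98095646, minus strand) encodes the copper- and ascorbate-dependent enzyme that turns a C-terminal glycine into an amide. It had 58.9, 43.2 and 58.7 CPM on plate 1 and 72.75, 67.0 and 68.0 CPM on plate 2, a mean of 61.4 ± 10.5 CPM (SD, n = 6). The comparison with Pcsk1n, its neighbour in the order, did not pass: the mean log2 ratio of Pcsk1n to Pam was -0.0027 ± 0.27 (SD; exact sign-flip p = 0.969), with Pcsk1n higher in 2 of 6 libraries. Cpe exceeded Pam by 2.60 ± 0.33 on the log2 scale in 6 of 6 libraries (SD; exact sign-flip p = 0.03125, adjusted p = 0.0443). B230216N24Rik, at 7.65 CPM, lies within the span of Pam on the same strand, so reads could be split between the 2 by the counting.

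**Figure D3:**
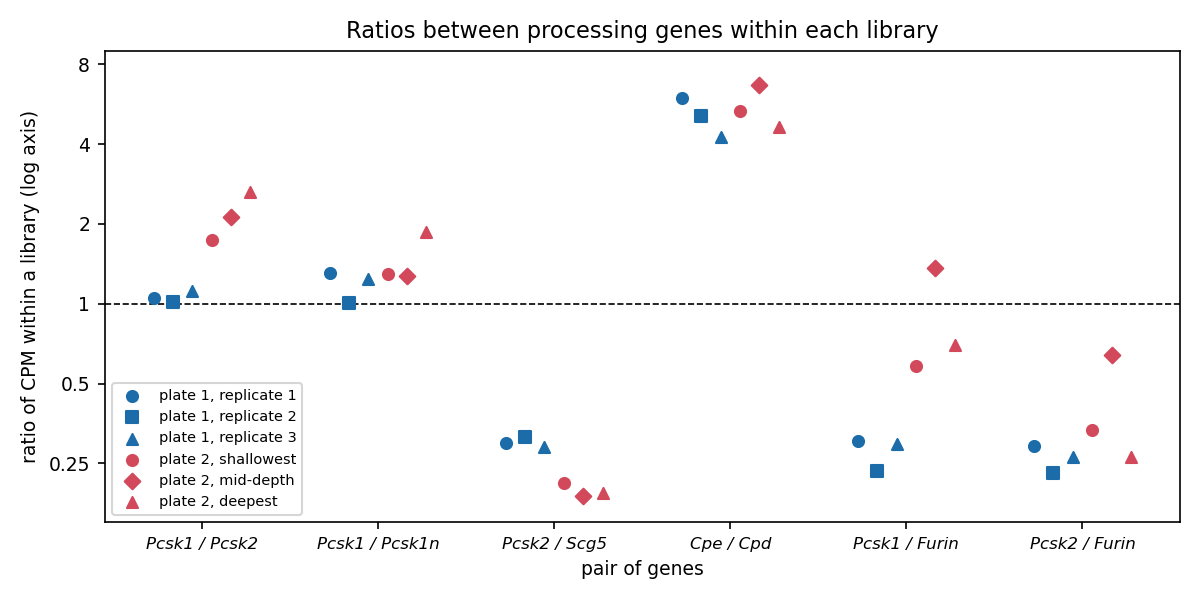
Ratio of CPM of 6 pairs of genes within each library (vertical log axis; dashed line at equal levels), with plate 1 in blue and plate 2 in red. The ratio of Pcsk1 to Pcsk2 is from 1.02 to 1.12 on plate 1 and from 1.75 to 2.65 on plate 2, and in the mid-depth library (diamond) both convertases are highest against Furin, at 1.365 and 0.640.

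The plates were then compared over all genes with edgeR's quasi-likelihood test on TMM-scaled counts, adjusted over the 15669 genes tested. No processing gene passed: 0 of the 9 tested had an adjusted p under 0.05, where 0.185% of all genes passed, and Pcsk5 was removed by the filter on low counts. At an unadjusted p under 0.05 there were 6 of 9, and 16.1% of all genes. In a library of a whole well, fewer cells that express a gene and less RNA per cell cannot be told apart.

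The log2 fold change of plate 2 over plate 1 was 0.56 ± 0.15 (SE) for Pcsk1 (edgeR adjusted p = 0.135), 0.74 ± 0.20 for Pcsk7 (adjusted p = 0.142) and 0.50 ± 0.18 for Cpe (adjusted p = 0.217). It was -0.97 ± 0.22 for Furin (adjusted p = 0.116) and -0.46 ± 0.14 for Pcsk2 (adjusted p = 0.166). For Cpd it was 0.36, for Pcsk1n 0.27, for Scg5 0.14 and for Pam 0.10, with adjusted p-values between 0.265 and 0.762. The median over the 9 genes was 0.27, and over all genes tested it was 0.03. DESeq2 called 1 of the 9, Furin (adjusted p = 0.00148), against 3.73% of all genes, and limma-voom called 0 of the 9, against 0.0638% of all genes, with 6 of 9 and 16.6% of all genes at an unadjusted p under 0.05.

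Without the mid-depth library, 4 of the 9 passed in edgeR, where 12.0% of all genes did. Pcsk1 (log2 fold change 0.45 ± 0.12, SE; adjusted p = 0.0288) and Pcsk7 (0.71 ± 0.20; adjusted p = 0.033) were higher on plate 2, with 4.20% of all genes called in that direction. Furin (-0.77 ± 0.092; adjusted p = 0.000152) and Pcsk2 (-0.58 ± 0.12; adjusted p = 0.00585) were lower, with 7.83% called. Cpe did not pass (0.24 ± 0.093; adjusted p = 0.11). The fold change of Pcsk1n was 0.042 in this fit, that of Scg5 -0.012, that of Pam 0.087 and that of Cpd 0.27. The median over the 9 genes was then 0.087, and that of all genes 0.010. Omission of any other library left 0 of the 9 called. With all 6 libraries, edgeR called 4 of 9 when scaled to the total alone, against 9.46% of all genes, and 4 of 10 with no filter on low counts, against 2.02% of 27022 genes.

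**Figure D4:**
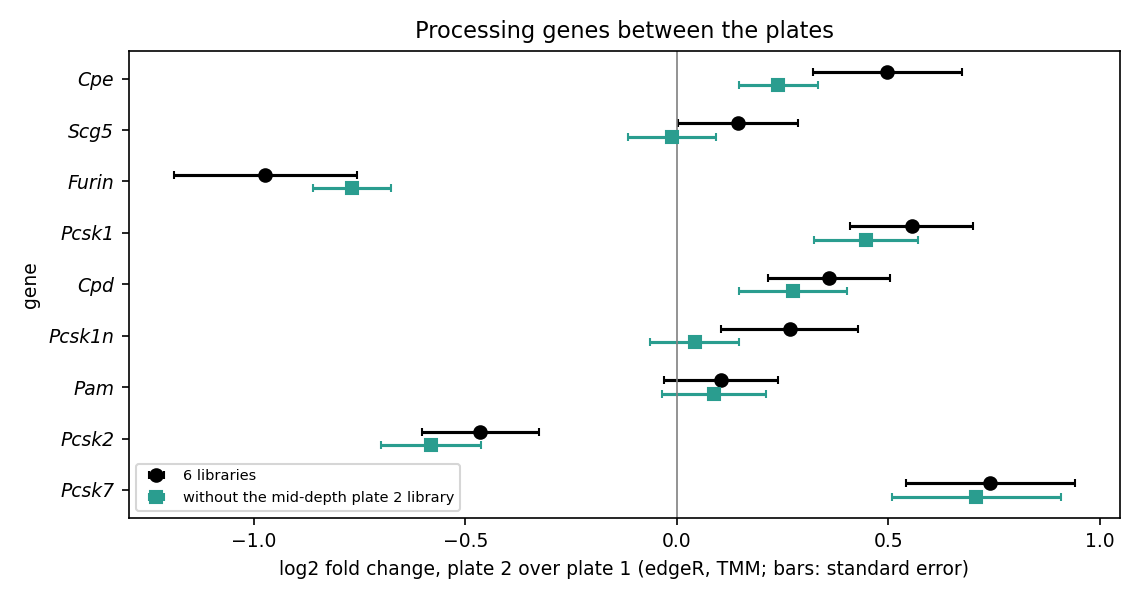
Log2 fold change of plate 2 over plate 1 from edgeR with TMM scaling (horizontal axis; bars are the standard error) for the 9 genes tested, with all 6 libraries (black) and without the mid-depth library (green). Furin at -0.97 and Pcsk2 at -0.46 lie below 0 and Pcsk7 at 0.74 and Pcsk1 at 0.56 lie above it, and without that library Furin is at -0.77, Pcsk2 at -0.58, Pcsk7 at 0.71 and Pcsk1 at 0.45.

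Scaling sets how many of these genes separate the plates. In CPM over the total, 7 of the 10 had every plate 2 library above every plate 1 library (35.2% of all genes tested) and 1, Furin, had them all below (4.00%). In CPM over the TMM-scaled total, 3 lay above, Pcsk1, Cpe and Pcsk7 (12.8%), and 2 below, Furin and Pcsk2 (12.0%). Leaving out the mid-depth library changed neither set of genes, while the shares of all genes became 52.7% above and 6.64% below over the total, and 23.1% and 20.2% over the TMM-scaled total. The median log2 fold change of all genes was 0.30 with the total alone, so levels in CPM carry that shift between plates. Ratios between genes of a library do not depend on the scaling.

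The mid-depth library departed from the other plate 2 libraries by amounts that differed between genes. Against their mean, its log2 of CPM + 1 was higher by 0.56 for Cpe, 0.48 for Pcsk1n, 0.32 for Scg5, 0.21 for Pcsk2, 0.19 for Pcsk1 and 0.13 for Cpd. The difference was -0.016 for Pcsk7, -0.069 for Pam and -0.091 for Pcsk5. The value for Pcsk5 is set by the 1 CPM added, since it had 0.0648 CPM there and 0.107 and 0.162 CPM in the shallowest and deepest. For Furin it was -0.88, where the median of 8658 genes was -0.042 and their 10th and 90th percentiles were -0.85 and 0.41. Of the 9 enteroendocrine markers, Insm1 (-2.44), Nkx2-2 (-0.997), Gcg (-0.58), Neurod1 (-0.56) and Pax6 (-0.20) were lower in that library. Cck (0.87), Chga (0.64), Chgb (0.30) and Isl1 (0.0072) were higher, and the part of these departures in the results was not tested. The mitochondrial share of counts, from 3.98% to 4.85% on plate 1 and from 4.62% to 7.27% on plate 2, overlapped between the plates and was highest in the deepest library, and its part was not tested.

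Levels of the enzymes were also set against those of their main substrate. Gcg, which encodes proglucagon, had 3416 ± 771 CPM (SD, n = 6). It was 48.15, 49.0 and 50.75 times Pcsk1 on plate 1 and 47.05, 25.2 and 40.0 times Pcsk1 on plate 2, with the low value in the mid-depth library. Against Pcsk2, Gcg was from 49.96 to 56.6 times as high on plate 1 and 82.25, 53.8 and 106.0 times on plate 2. Cck, which encodes the cholecystokinin precursor, was 19.4 times Pcsk1 on average on plate 1 and 9.55 times on plate 2. The plates did not overlap in this ratio or in that of Gcg to Pcsk1, and they overlapped in that of Gcg to Pcsk2. In the absence of the mid-depth library the plate 2 means were 43.5 for Gcg over Pcsk1, 94.1 for Gcg over Pcsk2 and 8.10 for Cck over Pcsk1. These ratios were not tested.

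Other genes of the pathway were taken from 8 lists, described by count and median. Between plates, none of their genes tested passed in edgeR with all 6 libraries, in either direction (0.185% of all genes passed). Among the other convertases, Mbtps1 (the site-1 protease) had 52.8 ± 9.13 CPM (SD, n = 6), a level close to that of Pcsk2, while Pcsk4 had 7.03 CPM and Pcsk6 at most 3 counts. Of 6 further carboxypeptidases of the family of Cpe and Cpd, 3 exceeded 3 counts in every library. Cpn1, at 27.7 ± 6.32 CPM, and Aebp1, at 26.3 ± 8.34 CPM, were the highest of them, and Cpxm1 was at 0.

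The genes that supply Pam with copper and reduced ascorbate were all measured, from Atox1, a copper chaperone, at 123 ± 10.3 CPM, to Atp7a, the copper pump of the secretory pathway, at 17.2 ± 3.56 CPM. All 4 genes for end or side chain modification were present, led by Tpst1, a tyrosyl sulfotransferase, at 35.7 ± 9.29 CPM, with Qpctl, a glutaminyl cyclase, lowest at 10.9 ± 3.03 CPM. Ctsl, the lysosomal protease cathepsin L, had 320 ± 55.9 CPM, above every processing gene but Cpe by its mean, and Nrdc (Nrd1 in the annotation; nardilysin, which cuts beside basic residues) had 78.9 ± 3.85 CPM. The lowest of these other proteases, Ece2, had 3.15 ± 1.06 CPM.

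Of the signal peptidase subunits, Spcs2 was highest at 192 ± 31.2 CPM and Spcs3 lowest at 30.6 ± 17.9 CPM, with 9.77 CPM as its minimum. Peptide-degrading enzymes ranged from Prep, a prolyl endopeptidase, at 42.6 ± 9.06 CPM to Mme (neprilysin) at 0.0838 CPM and Anpep (aminopeptidase N) at 0.0927 CPM, and Dpp4, which inactivates GLP-1, had 4.57 ± 1.63 CPM. Among the 11 substrates Gcg was highest, Cck followed at 1080 ± 277 CPM, Gip was at 0 and Sst had at most 1 count. Median log2 fold changes between plates were from -0.12 (other proteases) to 0.32 (end and side chain modification), beside 0.03 for all genes. Without the mid-depth library, 5 of the 36 listed genes tested passed in edgeR (13.9%, where 12.0% of all genes passed): Chga, Cck, Spcs1, Nrdc and Ctsl, all with a lower level on plate 2 (adjusted p from 0.00149 to 0.0282; 7.83% of all genes were called in that direction). With all 6 libraries and scaling to the total alone, 5 others passed, Cpm, Mbtps1, Rnpep, Sec11a and Tpst2, all with a higher level (adjusted p from 0.0277 to 0.0471; 9.01% of all genes). These settings differ in both the scaling and the libraries used, and they called different genes. Under the total alone the median log2 fold change of all genes was itself 0.30.

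**Figure D5:**
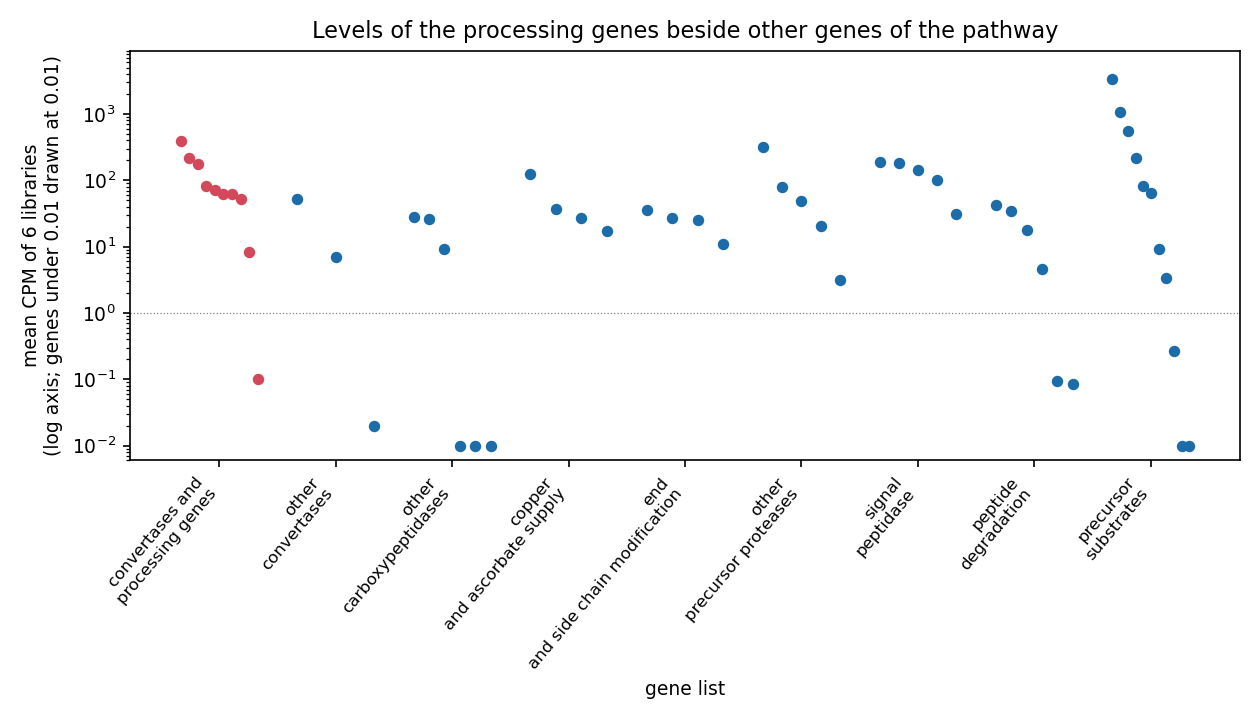
Mean CPM of 6 libraries (vertical log axis, values under 0.01 drawn at 0.01, dotted line at 1 CPM) of the 10 processing genes (red) and the genes of 8 lists of the pathway (blue), 1 point per gene. The processing genes range from 0.1002 to 388 CPM, and the precursor substrates reach 3416 CPM.

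By the root mean square difference of log2 CPM after each gene's own mean was removed, over 6 libraries and 8657 genes, the genes whose pattern was most like that of Pcsk1 were B4galt3 (0.0513), Prdx4 (0.067) and March6 (0.0688), against a median of 0.361. For Pcsk2 they were Bnip3 (0.0485), Ier3ip1 (0.0512) and Znhit1 (0.0533), against a median of 0.324. Prdx4, for example, had 175.3, 142.9 and 165.9 CPM on plate 1 and 237.5, 283.3 and 273 CPM on plate 2. With 6 libraries on 2 plates such likeness is a description of these libraries.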

How the data were processed

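The 6 libraries of GLUTag cells were made with a 3′ mRNA kit. Per the paper's methods and the submitters' processing notes, the authors trimmed reads with Trim Galore 0.6.4, assigned them to GRCm38 transcripts with Salmon 1.5.1 with no correction for length, and imported the sums for genes with Tximeta. What they deposited are expected counts, which are estimated, need not be whole and carry no normalization. Depth is the total count per library, from 21399987 to 36488198.

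CPM is the unrounded count over the library total. For edgeR 4.0.16 (TMM, filterByExpr, robust quasi-likelihood fit, plate as the only term, Benjamini-Hochberg adjusted p under 0.05), DESeq2 1.42.0 and limma-voom 3.58.1, counts were rounded. These fits ran over the whole table, and all scripts for them were first tested on simulated data. Positions and symbols are from GENCODE M21 on GRCm38, and promoter windows and synonyms from RefSeq. Of the gene identifiers, 54107 of 54281 had a symbol. R 4.3.3 and Python 3.11.15 were used.

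The 10 genes and all lists were chosen with earlier results of these data known. Named are all 10, of each list the highest and lowest 1 or 2 by mean CPM with Gcg, Cck and Dpp4, any gene past the test between plates, and the 3 genes most like Pcsk1 and Pcsk2. Chga, Spcs1, Cpm, Rnpep, Sec11a and Tpst2 were named after their values were seen, as were Pyy, Apob, Fabp2, Col3a1 and Cd68. The same holds for Insm1, Nkx2-2, Neurod1, Pax6, Chgb and Isl1. Alternatives were other tests, scalings, filters and pseudocounts and the omission of each library. Of the lists, 1 gene is not reported here and is left out of the plot of the lists. No other experiment of the study was analysed here.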

Additional observations from a re-analysis of the deposited data

Results flagged for a closer look

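The groups hold 3 libraries each, so the 6 libraries of the single condition were tested together, over 26 values (levels and ratios between genes), for 1 library whose gap to the next, divided by the range, exceeded Dixon's 95% critical value for 6 values. About 1 in 20 such tests would pass by chance for 6 values from 1 normal population. Many of the values here did not overlap between the plates, so that rate need not hold. Ratios that share a gene are also not independent. In the mid-depth library, the ratio of Scg5 to Furin was 3.40, against 0.732 to 1.58 in the others (gap over range 0.6825). The same library had a ratio of Pcsk2 to Furin of 0.640, against 0.23 to 0.333 in the others (0.7476). The deepest plate 2 library had a ratio of Pcsk1 to Pcsk1n of 1.87, against 1.01 to 1.31 in the others (0.6526).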

How the results depend on the processing

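Passage changes with plate, and Pcsk5 is at the limit of the depth. Levels in CPM stayed within 1 SD in all 80 alternatives. For the omission of 1 of 6 libraries this is fixed by arithmetic, so only the other library totals tested it. The 12 differences within a library that passed had 1 direction in 6 of 6 libraries. Other pseudocounts, either plate alone or the omission of a library could therefore not turn that direction, and they say nothing more of its stability. With 5 libraries p under 0.05 cannot be reached (smallest p 0.0625). Of the 5 that had not passed, the log2 ratio of Scg5 to Furin was -0.20 and that of Pam to Pcsk2 was -0.083 on plate 1 alone, each opposite in sign to the mean of 6 libraries, and that of Pcsk1n to Pam took either sign.

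The comparison of plates depended on the processing, and the cause was not tested. The number of genes past the threshold, 29 at first, was 584 with DESeq2, 10 with limma-voom, 1482 with no scaling beyond the total, 34 with DESeq2 size factors, 545 with no filter and from 0 to 1911 with a library left out. It was 1911 without the mid-depth library, 0 without replicate 1 of plate 1 (1611 at an unadjusted p under 0.05) or the shallowest plate 2 library (2121), and 2, 6 or 9 without another. The share of called genes that were lower on plate 2 was 93.1% with TMM, 73.12% with DESeq2, 53.21% with no filter and 4.791% with the total alone.

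Of the processing genes, 0 passed at first, 1 with DESeq2, 4 with no scaling beyond the total (Pcsk1, Pcsk7, Cpe and Cpd; 9.46% of all genes), 4 with no filter (Pcsk1, Pcsk7, Cpe and Furin; 2.02%) and from 0 to 4 with a library left out. The number whose libraries did not overlap between plates was 8 by CPM over the total (35.2% of all genes higher on plate 2 and 4.00% lower), 5 over the TMM-scaled total (12.8% and 12.0%) and again 8 over the total without the mid-depth library (52.7% and 6.64%), alternatives chosen after the data were seen. Of 108 fold changes under alternatives, 93 kept direction and side of the threshold, 13 passed it in the same direction, and 2 reversed: Scg5 (-0.012 to 0.23 with a library left out) was -0.012 without the mid-depth library and Pam (-0.014 to 0.17) was -0.014 without replicate 2 of plate 1. The plate difference in the log2 ratio of Pcsk1 to Pcsk2 lay between 0.85 and 1.15 with a library left out, also an added alternative. No paired analysis was possible because the sample titles run on from plate to plate with no number repeated. The replicate numbers that restart in the plate 2 columns were not tied to samples.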
